A study of Mus musculus with 16 samples.

Results

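The response of normal mouse liver to a blockade of thyroid hormone synthesis was read from acetylation of histone H3 at lysine 27 (H3K27ac), a mark of active promoters and enhancers, measured by chromatin immunoprecipitation and sequencing. Of the 16 libraries in the series, 6 were compared here: 3 from livers of wild-type (WT) mice on PTU/LID, titled Ptulid_WT_27ac_135, Ptulid_WT_27ac_155 and Ptulid_WT_27ac_280, and 3 from WT mice on chow, titled Chow_WT_27ac_96, Chow_WT_27ac_99 and Chow_WT_27ac_106. Where 3 values of a diet are given, they follow this order of libraries. PTU/LID is a low-iodine diet with 0.15% propylthiouracil, given for 3 weeks from 6 weeks of age, and tissue of every group was taken on day 21. All mice carry the strain label C57BL/6J. Another 6 libraries, 3 from NCoR1 knockout (KO) mice on PTU/LID and 3 from KO mice on chow, entered the fit and are used near the end as a separate set of animals on the same diets. The labels do not say in which cells NCoR1 was deleted or that each library is a separate mouse, so a p-value reflects the spread among libraries, part of which may be technical. No hormone values were used, so thyroid state itself was not checked. All 52645 regions of the deposited count table were members, and 52606 passed the filter on low counts.

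Propylthiouracil inhibits thyroid peroxidase, the enzyme that attaches iodine to thyroglobulin, and low iodine deprives the gland of its substrate. The liver takes up thyroxine, converts it to the active hormone triiodothyronine with the deiodinase DIO1, and responds through thyroid hormone receptors bound to DNA. Receptors without hormone recruit corepressors such as NCoR1 with histone deacetylases that remove acetyl groups, and hormone replaces these with coactivators that add them.

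Total counts over the regions were 3095704, 4546159 and 4729424 on PTU/LID, against 2965505, 3466932 and 5831372 on chow. Regions on the mitochondrial chromosome took 3.26%, 0.946% and 1.08% of the counts in the PTU/LID libraries, against 4.25%, 6.12% and 0.821% in the chow libraries. Ptulid_WT_27ac_135 was the one nearest to chow at 330 of the 480 genes called higher on PTU/LID (68.8%) and at 265 of the 400 called lower (66.2%). Defining markers of hepatocytes were well acetylated: the 11 measured of 12 included Alb, the albumin gene, at 727 ± 212 CPM (counts scaled to library size) on PTU/LID and 686 ± 85.9 CPM on chow (SD, n = 3 each).

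The 2 regions with the largest gain lay 1.57 and 2.31 kb beyond an end of Thap7, and the farther one had 17.6, 14.7 and 29.4 CPM on PTU/LID and 4.12, 3.87 and 4.79 CPM on chow. At the level of all regions, 952 were higher (1.81%) and 997 lower (1.9%) on PTU/LID by edgeR's quasi-likelihood test with a Benjamini-Hochberg adjusted p under 0.05, together 3.7% of those tested. The split moved to 1070 higher and 894 lower with RLE scaling factors. With DESeq2, which differs in both scaling and test, it was 1174 higher and 867 lower. Losses were the larger changes: 610 lower regions and 326 higher regions changed by more than 1 on the log2 scale, and 41 lower regions and 3 higher regions by more than 2. Of the 997 lower regions, 109 were assigned to genes of the major urinary proteins (Mup), which are nearly identical copies. Most of the deepest losses lay at Mup genes or by the Sult2a genes, so a few clusters weigh on these counts. The CPM values of the 3 PTU/LID and the 3 chow libraries did not overlap at 978 of the lower and 873 of the higher regions, while 21.5% of all regions tested had no such overlap. Within the 3 WT libraries with a low mitochondrial share (Ptulid_WT_27ac_155, Ptulid_WT_27ac_280 and Chow_WT_27ac_106) 761 regions were called, and within the 3 with a high share (Ptulid_WT_27ac_135, Chow_WT_27ac_96 and Chow_WT_27ac_99) 188, of which 48 were higher and 140 lower. The count depended on single libraries. It was 3612 (2056 higher and 1556 lower) without Ptulid_WT_27ac_135, 933 without Ptulid_WT_27ac_155 and 669 without Ptulid_WT_27ac_280, and it was 988 without Chow_WT_27ac_96, 906 without Chow_WT_27ac_99 and 1178 without Chow_WT_27ac_106.

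Sequences are shown for a few promoters with a called change. These were picked by hand from the named genes, so their motifs do not represent all called promoters. Windows from 250 bases before to 50 bases after a gene start, taken from RefSeq on GRCm38.p6 (the assembly of mm10), are given for 4 genes whose promoter regions gained acetylation and for 3 whose regions lost it. Capitals mark AGGTCA, the half-site bound by thyroid hormone and other nuclear receptors, and CACGTG, the E-box core bound by factors such as MYC, CLOCK and SREBP, on either strand. The windows with higher acetylation are chr1:153740103-153740402 (plus strand) for Rgs16, chr1:134235408-134235707 (minus) for Adora1, chr7:143756959-143757258 (minus) for Osbpl5 and chr12:85746289-85746588 (plus) for Flvcr2.
Rgs16: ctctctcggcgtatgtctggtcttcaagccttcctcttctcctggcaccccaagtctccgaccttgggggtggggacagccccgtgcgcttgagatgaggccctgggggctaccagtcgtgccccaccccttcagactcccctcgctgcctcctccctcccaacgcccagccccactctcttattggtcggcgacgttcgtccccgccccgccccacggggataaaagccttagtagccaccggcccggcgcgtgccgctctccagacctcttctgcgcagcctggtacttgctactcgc
Adora1: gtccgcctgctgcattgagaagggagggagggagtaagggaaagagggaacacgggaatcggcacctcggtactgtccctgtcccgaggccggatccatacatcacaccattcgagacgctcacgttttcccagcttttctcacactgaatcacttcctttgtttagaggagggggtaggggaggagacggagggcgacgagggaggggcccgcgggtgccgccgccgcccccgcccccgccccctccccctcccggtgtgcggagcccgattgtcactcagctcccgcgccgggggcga
Osbpl5: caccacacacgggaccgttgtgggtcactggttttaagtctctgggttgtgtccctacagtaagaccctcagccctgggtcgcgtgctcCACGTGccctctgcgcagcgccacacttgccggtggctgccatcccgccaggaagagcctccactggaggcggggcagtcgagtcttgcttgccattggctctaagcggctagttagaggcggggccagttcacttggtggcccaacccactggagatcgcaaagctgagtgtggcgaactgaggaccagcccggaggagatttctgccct
Flvcr2: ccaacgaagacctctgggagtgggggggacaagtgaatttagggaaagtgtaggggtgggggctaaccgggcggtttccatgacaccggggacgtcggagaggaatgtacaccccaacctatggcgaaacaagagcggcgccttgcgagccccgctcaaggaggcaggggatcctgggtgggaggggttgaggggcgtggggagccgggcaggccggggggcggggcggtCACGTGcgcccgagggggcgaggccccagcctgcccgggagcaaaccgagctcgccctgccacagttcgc
The windows with lower acetylation are chr4:107307119-107307418 (minus) for Dio1, chr7:14438502-14438801 (minus) for Sult2a8 and chr14:55604329-55604628 (plus) for Irf9.
Dio1: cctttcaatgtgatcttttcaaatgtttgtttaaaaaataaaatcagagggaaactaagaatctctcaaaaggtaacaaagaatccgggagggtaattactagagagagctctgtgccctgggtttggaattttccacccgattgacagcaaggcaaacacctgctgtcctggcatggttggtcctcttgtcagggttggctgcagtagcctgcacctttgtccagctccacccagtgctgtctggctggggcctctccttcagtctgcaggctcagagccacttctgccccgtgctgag
Sult2a8: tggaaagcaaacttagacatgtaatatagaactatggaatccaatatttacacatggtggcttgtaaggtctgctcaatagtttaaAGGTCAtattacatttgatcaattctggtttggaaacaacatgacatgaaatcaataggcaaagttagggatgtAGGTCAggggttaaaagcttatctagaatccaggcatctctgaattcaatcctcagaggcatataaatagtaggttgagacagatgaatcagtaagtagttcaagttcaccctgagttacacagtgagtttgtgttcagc
Irf9: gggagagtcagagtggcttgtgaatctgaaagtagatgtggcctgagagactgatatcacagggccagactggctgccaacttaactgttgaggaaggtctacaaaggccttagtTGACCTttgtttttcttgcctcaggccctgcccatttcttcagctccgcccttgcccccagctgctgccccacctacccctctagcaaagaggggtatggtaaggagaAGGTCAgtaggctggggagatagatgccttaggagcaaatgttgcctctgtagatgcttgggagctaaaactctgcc

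The Sult2a8 window holds AGGTCA at 164 and 90 bases before the start, and the printed Irf9 window holds it at 27 bases before and at 1 position further upstream. A second Irf9 window, under the same called region at chr14:55603735-55604034, holds neither motif. CACGTG lies 161 bases before the start of Osbpl5 and 20 bases before that of Flvcr2. Neither run of letters occurs in the Dio1, Rgs16 and Adora1 windows. AGGTCA was present in 28.9% of the 114 windows under lower regions and in 16.5% of the 206 under higher regions, compared with 13.4% of the 9006 windows under regions that were not called and 16.3% of all 32851 windows. CACGTG was present in 3.51% of windows under lower regions and 16.5% under higher regions, with 10.3% under regions not called and 7.15% in all. The direct repeat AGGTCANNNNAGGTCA was in 5 windows of all and in 0 under called regions. These shares are descriptions with no test, and base composition moved with them: the median GC content was 48.5% in windows under lower regions, 59.0% under higher regions and 60.7% under regions not called. The part of base composition in these shares was not tested.

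Acetylation of the promoters of Adora1 and Rgs16 rose most among promoters. The region at the start of Adora1, the adenosine A1 receptor gene, had 11.7, 13.3 and 14.4 CPM on PTU/LID, against 3.48, 1.93 and 3.97 CPM on chow (log2 fold change 2.03 ± 0.32 SE, adjusted p = 5.65e-05). The region at the start of Rgs16 had 25.4, 68.5 and 72.9 CPM on PTU/LID and 11.7, 15.2 and 15.7 CPM on chow (1.97 ± 0.27, adjusted p = 7.11e-05). The groups did not overlap at either promoter, as at 873 of the 952 higher regions. At Rgs16 Ptulid_WT_27ac_135 lay far below the other PTU/LID libraries. At Osbpl5, a lipid transfer protein gene, the promoter region had 5.67, 17 and 17.6 CPM on PTU/LID and 4.12, 3.87 and 4.46 CPM on chow, with the same low place of Ptulid_WT_27ac_135. The Dio1 promoter region had 29, 21.3 and 18.3 CPM on PTU/LID and 90.6, 96.6 and 94.4 CPM on chow (-2.05 ± 0.19, adjusted p = 1.99e-09). All 7 of these promoter calls held when any 1 WT library was left out.

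Of the regions that overlapped a promoter window, 2.0% were higher and 1.06% lower, and of the other regions 1.79% were higher and 2.09% lower. Calls were most frequent between genes. There, within 50 kb of a gene, 3.19% of regions were higher and 2.99% lower, and beyond 50 kb 2.63% were higher and 2.32% lower. Within 2.5 kb of a gene end 1.66% were higher and 1.23% lower, and inside genes 1.3% were higher and 1.95% lower. Longer and stronger regions were called more often, in the longest of 4 equal classes 3.62% higher and 3.71% lower and in the shortest 0.228% higher and 0.562% lower, and these classes differ in counts per region. Chromosome 4 stood out by losses, with 73 regions higher and 175 lower. Of the 206 regions assigned to genes of the major urinary proteins, pheromone carriers made by hepatocytes, 109 were lower and 1 was higher, and the other regions of chromosome 4 had 2.0% higher and 1.83% lower.

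**Figure D1:**
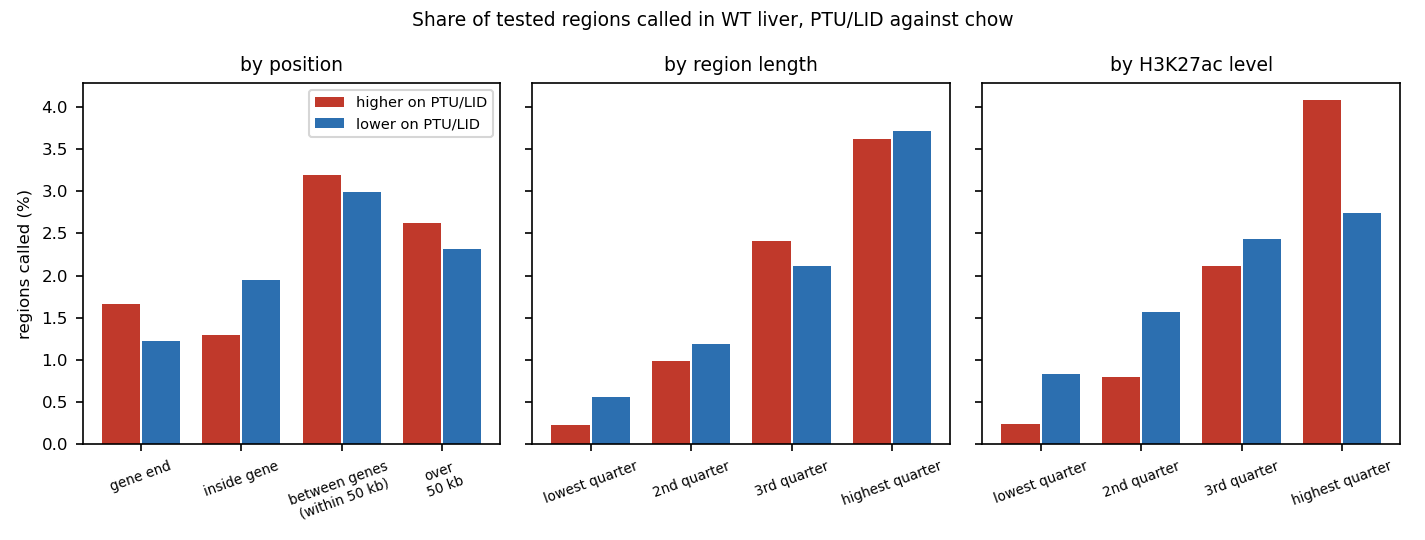
Share of tested regions (%) called higher (red) or lower (blue) on PTU/LID in WT liver, by position relative to coding genes, and by 4 equal classes of region length and of mean H3K27ac level. Regions between genes were called at 3.19% higher and 2.99% lower, and the share rises with length and level.

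Summed over the regions of each gene, 480 genes were higher (4.19%) and 400 lower (3.49%), together 7.69% of the 11448 tested. Gene-level values are CPM of these sums, on another scale than the CPM of single regions. The 20 genes with the largest rise, among called genes with at least 20 CPM on average in the higher group and with groups that did not overlap, were Rgs16, Pbx4, Nrg2, Osbpl5, Dock1, Thap7, 1700113H08Rik, Khdc1a, Gm21885, Tcea3, Plekhg6, Flvcr2, Ppif, Coq8b, Rgs8, Ranbp3l, Trp63, Rtn1, Iqck and Cplane2. The 20 with the largest fall were Sult2a7, Vmn2r20, Dio1, Sult2a8, Sult5a1, Vmn1r90, E2f8 and 13 members of the Mup family. Groups did not overlap at 25.9% of all genes tested, and at these 40 genes by the way they were chosen. Gene names follow position, so a region between genes carries the name of the nearest gene end within 50 kb.

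Rgs16 had the largest rise at gene level. Rgs16, which encodes a GTPase-activating protein for G alpha subunits, had 44, 121 and 126 CPM on PTU/LID, against 32.4, 30.9 and 28.3 CPM on chow (log2 fold change 1.69 ± 0.31, adjusted p = 0.009). Its neighbour Rgs8, of the same family, had 209, 324 and 275 CPM on PTU/LID and 120, 137 and 118 CPM on chow (1.11 ± 0.15). Both groups were apart at each gene, with Ptulid_WT_27ac_135 lowest on PTU/LID. Nrg2, a neuregulin that binds ERBB receptors, had 47.4, 58.1 and 47.8 CPM on PTU/LID and 18.9, 25.9 and 14.7 CPM on chow (1.40 ± 0.20). Pbx4, a homeobox factor gene, had 17.8, 24.3 and 19.1 CPM on PTU/LID and 7.83, 6.88 and 6.09 CPM on chow (1.59 ± 0.24). Here the 3 PTU/LID libraries lay close together and far above chow.

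Other genes of the 20 encode transporters, enzymes and structural proteins. Osbpl5 had 33, 60.3 and 65.4 CPM on PTU/LID and 22.4, 18.4 and 20.4 CPM on chow (1.39 ± 0.25, adjusted p = 0.0038). Flvcr2, a choline transporter of the FLVCR family, had 29.6, 42.5 and 45.2 CPM on PTU/LID and 18.9, 17.2 and 16.9 CPM on chow (1.17 ± 0.20). Ppif, which encodes the mitochondrial peptidyl-prolyl isomerase cyclophilin D, had 41.7, 65.7 and 71 CPM on PTU/LID and 28.8, 28.4 and 24 CPM on chow (1.16 ± 0.20). In all 3 genes Ptulid_WT_27ac_135 was the lowest on PTU/LID and, as the choice of genes required, above every chow library. Dock1, a guanine nucleotide exchange factor for RAC, rose by 1.36 ± 0.27, Rtn1, a reticulon of the endoplasmic reticulum, by 1.07 ± 0.14, and Trp63, which encodes the p53 relative p63, by 1.08 ± 0.13. Trp63 had 165, 165 and 142 CPM on PTU/LID and 68.4, 87.2 and 68.3 CPM on chow. Khdc1a rose by 1.23 ± 0.13, with 330, 329 and 368 CPM on PTU/LID and 136, 174 and 130 CPM on chow. All 7 called regions of the Khdc1a locus lay within 12.7 kb, outside the annotated gene.

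Of these 20 higher genes, 17 kept their call when any 1 WT library was left out. Coq8b kept it only without Ptulid_WT_27ac_135, with adjusted p of 0.105 without Ptulid_WT_27ac_155, 0.102 without Ptulid_WT_27ac_280, 0.0811 without Chow_WT_27ac_96, 0.093 without Chow_WT_27ac_99 and 0.1 without Chow_WT_27ac_106. Iqck lost it without Ptulid_WT_27ac_155 (0.0756) and Ptulid_WT_27ac_280 (0.147) and Chow_WT_27ac_96 (0.102) and Chow_WT_27ac_106 (0.123). Cplane2 lost it without Ptulid_WT_27ac_155 (0.0725) and Ptulid_WT_27ac_280 (0.126) and Chow_WT_27ac_99 (0.0911) and Chow_WT_27ac_106 (0.131). Over all genes the count of calls was 1582 without Ptulid_WT_27ac_135, 376 without Ptulid_WT_27ac_155 and 338 without Ptulid_WT_27ac_280, and it was 491 without Chow_WT_27ac_96, 398 without Chow_WT_27ac_99 and 467 without Chow_WT_27ac_106. Calls held under each of these 6 omissions for 86 of the 480 higher genes (17.9%) and 134 of the 400 lower genes (33.5%).

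The 20 genes with the largest fall included 3 sulfotransferases and the deiodinase Dio1. Sulfotransferases add sulfate to steroids, bile acids and other small molecules. Sult2a7, which can share reads with near-identical Sult2a copies, had 60.5, 68.3 and 50.7 CPM on PTU/LID, against 408, 298 and 312 CPM on chow (-2.50 ± 0.14, adjusted p = 6.2e-11). Sult2a8 had 90.8, 89.8 and 72.8 CPM on PTU/LID and 358, 276 and 290 CPM on chow (-1.87 ± 0.14). Sult5a1, on another chromosome, had 28.9, 18 and 16.9 CPM on PTU/LID and 69.1, 64.4 and 58.6 CPM on chow (-1.61 ± 0.21). All 3 sulfotransferase genes had groups far apart. Dio1 had 68.2, 44.4 and 38.7 CPM on PTU/LID and 188, 204 and 181 CPM on chow (-1.94 ± 0.18, adjusted p = 1.8e-06), with Ptulid_WT_27ac_135 again the nearest to chow.

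E2f8, an atypical E2F factor linked to polyploidy of hepatocytes, had 68.6, 70.9 and 52.1 CPM on PTU/LID and 177, 194 and 184 CPM on chow (-1.54 ± 0.18, adjusted p = 2.9e-05). Vmn2r20, a vomeronasal receptor gene, had 13.1, 13 and 7.79 CPM on PTU/LID and 42, 55.6 and 77.6 CPM on chow (-2.41 ± 0.29). Its name and that of Vmn1r90 come from position, and no expression of these receptors in liver was measured here. The 13 Mup genes among the 20 fell by 1.49 to 1.94 on the log2 scale, and since these copies are nearly identical, single members are uncertain. All 20 lower genes kept their call under each omission of 1 library. Of the 20 lower genes Ptulid_WT_27ac_135 was the nearest to chow in 18, and of the 20 higher genes in 15.

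**Figure D2:**
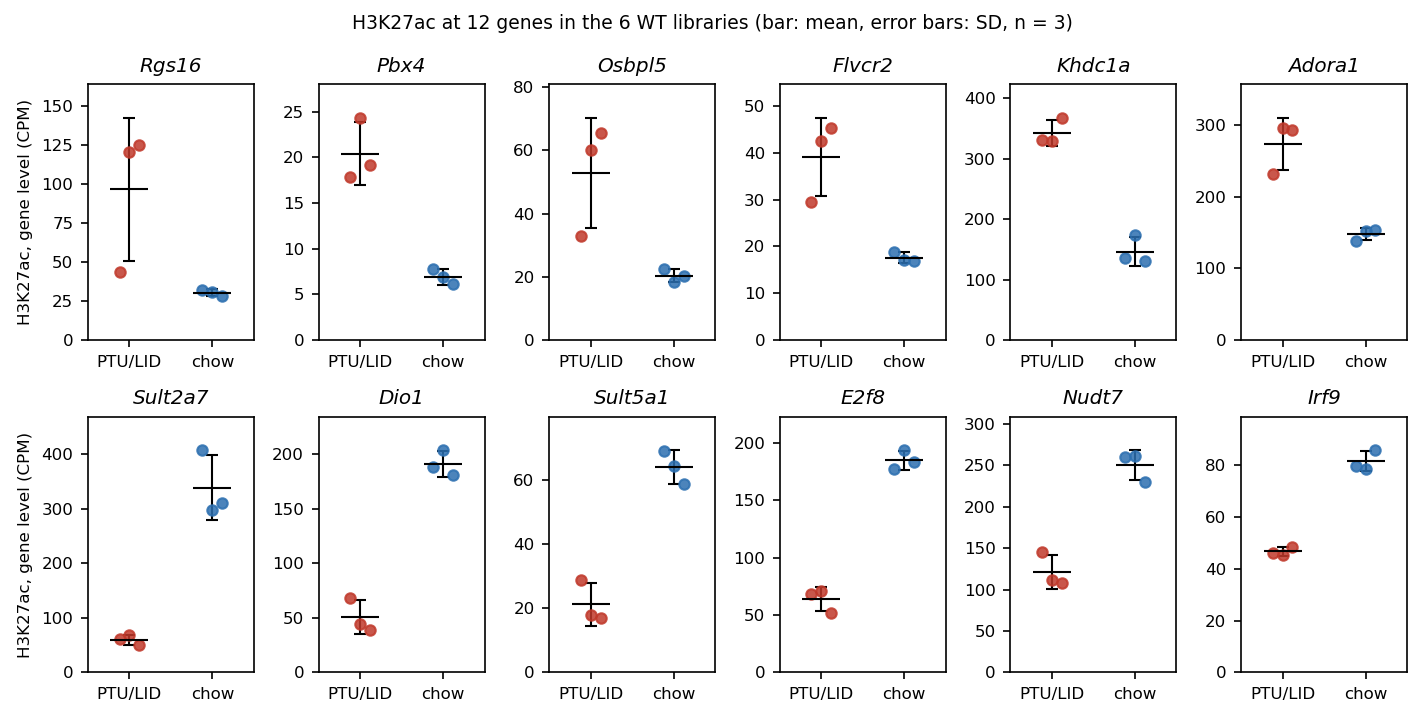
Gene-level H3K27ac (CPM) of 12 genes in each WT library, PTU/LID on the left (red) and chow on the right (blue), libraries in ascending order of the number in their titles, with the mean as a bar and the SD as error bars (n = 3). Ptulid_WT_27ac_135 is the lowest of its group at Rgs16, Osbpl5, Flvcr2 and Adora1.

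Called regions often lay side by side. Runs of at least 3 called regions in 1 direction, with midpoints at most 50 kb apart, formed 70 higher and 85 lower loci that held 671 called regions (34.4% of all calls). Of the lower loci, 15 carry Mup names. The number of loci was 331 without Ptulid_WT_27ac_135, 65 without Ptulid_WT_27ac_155 and 49 without Ptulid_WT_27ac_280, and it was 72 without Chow_WT_27ac_96, 62 without Chow_WT_27ac_99 and 76 without Chow_WT_27ac_106. The split was 93 higher and 75 lower with DESeq2, and within the 3 libraries with a high mitochondrial share there were 0 higher and 17 lower loci. Loci summarise calls already made and were not tested again. The 10 higher loci with the most called regions were Rgs8/Rgs16, Enpp2, Khdc1a, Cdk19, Ppp1r3c, Cebpa/Slc7a10, Cys1/Klf11, Adora1, 1810010H24Rik/Bptf and Tectb/Gpam. The last 3 had 5 called regions each, as had Dock6/Angptl8 and Tmem51, and were taken first for their larger median change.

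The Rgs8/Rgs16 locus (chr1:153679286-153742588) held 8 called among 12 regions, all with positive change. Its regions summed to 215, 389 and 357 CPM on PTU/LID, against 130, 142 and 128 CPM on chow. The called regions lay in Rgs8 and at the Rgs16 start. At the Adora1 locus (chr1:134222191-134238391) 5 of 6 regions were called, and the sum was 176, 229 and 238.9 CPM on PTU/LID and 103, 111 and 117 CPM on chow. Enpp2, which encodes the lysophosphatidic acid producing enzyme autotaxin, had 8 called of 15 regions over 91.9 kb, with 457, 506 and 539 CPM on PTU/LID and 329, 291 and 323 CPM on chow. In each of these 3 loci every PTU/LID library was above every chow library. The loci were built from regions called higher in these libraries, so this is no separate result. Groups did not overlap at 873 of the 952 higher regions and at 21.5% of all regions tested.

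Ppp1r3c, a glycogen-targeting subunit of protein phosphatase 1, had 7 called of 10 regions and a summed 381 ± 25.8 CPM on PTU/LID and 221 ± 6.04 CPM on chow (SD, n = 3 each). The Cdk19 locus, outside but nearest to the gene of a kinase of the Mediator complex, had 254 ± 49.4 CPM on PTU/LID and 141 ± 5.91 CPM on chow. The Cebpa/Slc7a10 locus overlaps Cebpa, the gene of the hepatocyte factor C/EBP alpha, but not Slc7a10. It had 819 ± 189 CPM on PTU/LID and 506 ± 69.9 CPM on chow over 17 regions, 6 of them called. The Tectb/Gpam locus overlaps the tectorin gene Tectb and takes the name Gpam, a mitochondrial glycerol-3-phosphate acyltransferase gene that it does not overlap, from position alone, and it had 248 ± 32 CPM on PTU/LID and 157 ± 13.8 CPM on chow. The 1810010H24Rik/Bptf locus had 147 ± 38.5 CPM on PTU/LID and 61.7 ± 2.93 CPM on chow, with 5 of 7 regions called. The number of called regions in these loci fell when 1 library was left out: to 1 of 6 at Cebpa/Slc7a10 without Chow_WT_27ac_99, to 1 of 6 at Cys1/Klf11 without Chow_WT_27ac_106, to 2 of 5 at 1810010H24Rik/Bptf without Chow_WT_27ac_106, to 2 of 7 at Cdk19 without Ptulid_WT_27ac_280, to 3 of 8 at Enpp2 without Chow_WT_27ac_99 and to 3 of 7 at Ppp1r3c without Chow_WT_27ac_106. At Rgs8/Rgs16 it stayed at 5 or more of 8, at Khdc1a at 5 or more of 7, at Adora1 at 4 or more of 5 and at Tectb/Gpam at 3 or more of 5.

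Of the 10 lower loci with the most called regions, 6 were Mup loci and the others were Vmn1r90/Sult2a7, Shld1/Gpcpd1, Csrp3/E2f8/Zdhhc13 and Nudt7. Mup8 and Nudt7 had 8 called regions each, as had Ly6e/Ly6a/Ly6i and Cyp3a11, and were taken first for their larger median fall. The Vmn1r90/Sult2a7 locus (chr7:14517333-14537743) lies between genes, with region midpoints 26.4 kb or more from the Sult2a7 end. Its 13 regions, 11 of them called, summed to 86.9, 87.4 and 71.2 CPM on PTU/LID and 458, 338 and 360 CPM on chow. The widest region there, chr7:14517333-14521529, had the largest fall among regions named by fold change, with 22.4, 24.1 and 17.4 CPM on PTU/LID and 162, 131 and 150 CPM on chow (-2.79 ± 0.18, adjusted p = 1.4e-13). The fall thus spread over the whole stretch of 20.4 kb, with all 13 regions lower.

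The Csrp3/E2f8/Zdhhc13 locus (chr7:48822773-48880555) had 9 called of 11 regions and summed to 191, 189 and 135.3 CPM on PTU/LID and 388, 433 and 433 CPM on chow. Csrp3 encodes a LIM-domain protein of striated muscle, and Zdhhc13 a palmitoyltransferase. The Shld1/Gpcpd1 locus spans 108.4 kb and overlaps Gpcpd1, a glycerophosphocholine phosphodiesterase gene, but not Shld1, a shieldin subunit gene, and it summed to 127, 142 and 131 CPM on PTU/LID and 332, 289 and 351 CPM on chow. At Nudt7, a peroxisomal coenzyme A diphosphatase gene, the deepest losses lay before the gene: 3 regions between -40.51 and -38.49 kb from the start changed by -2.03 to -2.22, while the region at 0.36 kb changed by -0.66 ± 0.19. The Nudt7 locus summed to 98.6, 82.5 and 77.8 CPM on PTU/LID and 195, 196 and 179 CPM on chow. Without Ptulid_WT_27ac_280 the called regions were 5 of 10 at Shld1/Gpcpd1, 6 of 9 at Csrp3/E2f8/Zdhhc13 and 5 of 8 at Nudt7, and at Vmn1r90/Sult2a7 they were 9 or more of 11 under every omission.

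**Figure D3:**
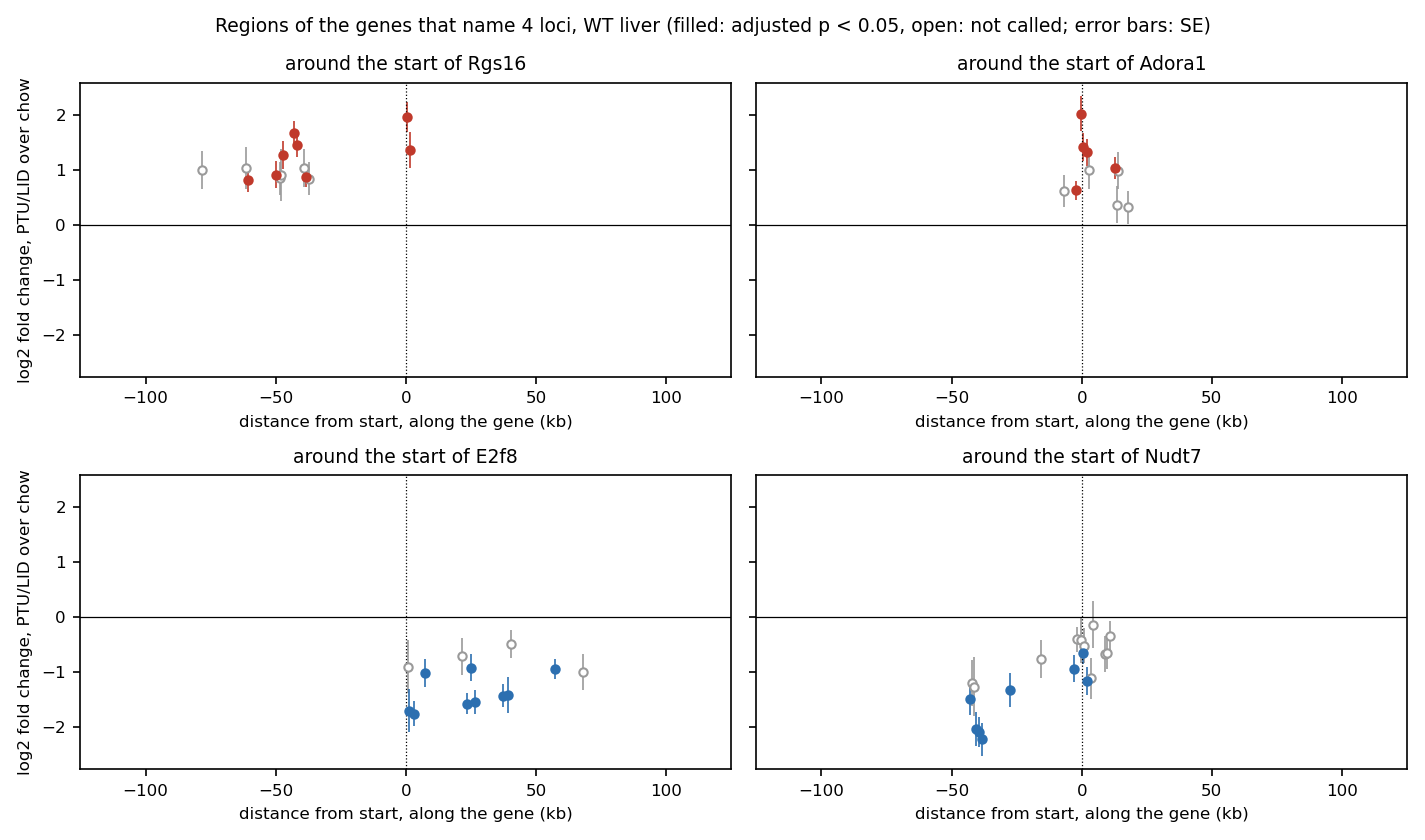
Log2 fold change (PTU/LID over chow, WT) of the regions assigned to the genes that name the Rgs8/Rgs16, Adora1, Csrp3/E2f8/Zdhhc13 and Nudt7 loci, within 120 kb of the starts of Rgs16, Adora1, E2f8 and Nudt7, against distance from the start along the gene (kb), with SE as error bars and called regions filled. Gains at Rgs16 extend back over Rgs8, and the deepest losses at Nudt7 lie between -40.51 and -38.49 kb from its start.

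Further lower loci outside the Mup family were picked after their values were seen. At Bcl6, the gene of a transcriptional repressor, 5 of 7 regions were called and the sum was 94.4, 90 and 92.4 CPM on PTU/LID and 184, 206 and 189 CPM on chow. At gene level Bcl6 was not among the called genes of the STAT, SOCS and BCL6 list given below. At Paqr9, of the progestin and adipoQ receptor family, the sum was 57.8 ± 3 CPM on PTU/LID and 130 ± 19.3 CPM on chow (SD, n = 3 each). At Rapgef4, which encodes the cyclic AMP sensor EPAC2, it was 266, 449 and 339 CPM on PTU/LID and 627, 562 and 651 CPM on chow. Wdr89, Abca3 and the endoplasmic reticulum calcium sensor gene Stim2 had 58 ± 12.4, 48.6 ± 2.8 and 84.2 ± 9.6 CPM on PTU/LID and 131 ± 6.3, 99.7 ± 8.17 and 168 ± 9.07 CPM on chow. Called regions numbered 5 of 5 at Rapgef4 under every omission, but 3 of 5 at Bcl6 and Paqr9 without Chow_WT_27ac_96, 2 of 5 at Abca3 without Chow_WT_27ac_99, and 2 of 6 at Wdr89 and 1 of 5 at Stim2 without Ptulid_WT_27ac_280. One gene, Adgrv1, an adhesion receptor gene, held 3 higher and 2 lower called regions. Its gene-level change of 0.42 ± 0.11 lost its call without Ptulid_WT_27ac_155 (0.0848) and Ptulid_WT_27ac_280 (0.0746) and without Chow_WT_27ac_96 (0.0806), Chow_WT_27ac_99 (0.0973) and Chow_WT_27ac_106 (0.0526).

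Members of 39 gene lists beyond the standard hepatic thyroid hormone pathways were read from the same gene-level fit, against the 7.69% called over all genes tested. The lists name 695 genes, but members without a tested region could not be called. Counts below are therefore out of the measured members of a list. Of the 70 list genes called, 65 remained so without Ptulid_WT_27ac_135, 23 without Ptulid_WT_27ac_155, 25 without Ptulid_WT_27ac_280, 34 without Chow_WT_27ac_96, 33 without Chow_WT_27ac_99 and 37 without Chow_WT_27ac_106, and 18 remained under all 6 omissions. The names below are of these 18 unless a loss is given. The list with the most called genes was interferon response and antigen presentation, with 0 higher and 8 lower of 24 measured genes, a median log2 fold change of -0.50 and 23 negative values. Irf9, the DNA-binding subunit of the interferon-stimulated factor ISGF3, had 46.1, 45.4 and 48.5 CPM on PTU/LID and 79.8, 78.5 and 85.7 CPM on chow (-0.80 ± 0.13, adjusted p = 0.00066). Ifit3, an interferon-induced antiviral protein gene, had 60.2, 50.6 and 55.9 CPM on PTU/LID and 89.4, 78.5 and 98.4 CPM on chow (-0.69 ± 0.14). Gbp3, a guanylate-binding protein gene, had 13.8, 15.4 and 9.57 CPM on PTU/LID and 32.4, 22.8 and 27.4 CPM on chow (-1.10 ± 0.22). The groups were apart at all 3, as at 393 of the 400 genes called lower and at 25.9% of all genes tested. The number of lower genes in the list was 10 without Ptulid_WT_27ac_135, 3 without Ptulid_WT_27ac_155 or Ptulid_WT_27ac_280, 6 without Chow_WT_27ac_96, 5 without Chow_WT_27ac_99 and 4 without Chow_WT_27ac_106, and DESeq2 called 8 lower and 0 higher. Cd74, the invariant chain of class II antigen presentation, changed by -1.27 ± 0.32 and lost its call without Ptulid_WT_27ac_155 (0.0655) and Ptulid_WT_27ac_280 (0.0831) and Chow_WT_27ac_96 (0.106).

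Called markers of Kupffer cells and macrophages, endothelial cells and lymphocytes were lower as well, and the called cholangiocyte marker was higher. Of 15 Kupffer cell and macrophage markers, 7 had a region and 8, among them Clec4f, Vsig4 and Adgre1, had none assigned. The 7 had a median change of -0.87 and summed to between 107.6 and 142.8 CPM on PTU/LID and between 165.4 and 237.7 CPM on chow, with Spi1, the myeloid factor PU.1, called by edgeR (25.6 ± 2.98 CPM on PTU/LID and 48 ± 7.29 CPM on chow). At an unadjusted p under 0.05 5 of the 7 were lower, DESeq2 called 2, and edgeR called 5 without Ptulid_WT_27ac_135 and 2 without Chow_WT_27ac_96. None of the measured markers was at 0, which no region could be, since the lowest count in the deposited table was 1. Of 14 measured endothelial markers 4 were lower, with a median of -0.45 (8 lower without Ptulid_WT_27ac_135 and 1 without Ptulid_WT_27ac_155 or Ptulid_WT_27ac_280) and sums of 937.9 to 1109 CPM on PTU/LID and 1156 to 1213 CPM on chow. Of the 14, 2 had a positive change. A higher locus named after 1700113H08Rik and the endothelial marker Stab2 overlapped no coding gene. That locus summed to 97.8 ± 38.65 CPM on PTU/LID and 42.1 ± 6.54 CPM on chow (SD, n = 3 each). Stellate cell markers had 0 called of 7 by edgeR or DESeq2 (1 at an unadjusted p under 0.05, and 1 called without Ptulid_WT_27ac_135) with a median of -0.26, and 1 of 3 lymphocyte markers, Cd4, was lower. Hepatocyte markers had a median of 0.23, with Ttr, the thyroid hormone carrier transthyretin, as the 1 of 11 called (5 without Ptulid_WT_27ac_135). Of 5 cholangiocyte markers 1 was higher, and 0 were without Ptulid_WT_27ac_135, Ptulid_WT_27ac_155, Chow_WT_27ac_96 or Chow_WT_27ac_106. In whole tissue fewer cells of a type and less acetylation per cell cannot be told apart. The part of these cell types in the interferon result was not tested.

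The same holds for factors of the ETS and GATA families, of which 3 of 13 were lower and 0 higher, with a median of -0.26 (6 lower without Ptulid_WT_27ac_135, and 2 without Ptulid_WT_27ac_155, Ptulid_WT_27ac_280 or Chow_WT_27ac_106). Of the 13, 4 had a positive change, and at an unadjusted edgeR p under 0.05 3 were higher and 6 lower. Ets1 had 211.1, 189 and 194 CPM on PTU/LID and 290, 287 and 268 CPM on chow (-0.51 ± 0.12, adjusted p = 0.0089). Erg, which is also on the endothelial marker list, had 62.9, 51.8 and 62.5 CPM on PTU/LID and 94.3, 86 and 91.6 CPM on chow (-0.62 ± 0.12). Both genes had groups that did not overlap, as had 393 of the 400 genes called lower. The third, Fli1, changed by -0.60 ± 0.15 and lost its call without Ptulid_WT_27ac_155 (0.0921) and Ptulid_WT_27ac_280 (0.0538) and Chow_WT_27ac_106 (0.0531). Of 19 genes of the STAT, SOCS and BCL6 axis 3 were lower and 0 higher, among them Il6st, the shared receptor subunit gp130 of interleukin 6 family cytokines, with 139, 117 and 121 CPM on PTU/LID and 186, 191 and 174 CPM on chow. Stat5a (-0.67 ± 0.17) lost its call without Ptulid_WT_27ac_280 (0.105) and Chow_WT_27ac_96 (0.0846), and the kinase gene Jak1 (-0.31 ± 0.09) without every library but Ptulid_WT_27ac_135 (0.0617 to 0.12). The list had 7 lower genes without Ptulid_WT_27ac_135 and 1 without Ptulid_WT_27ac_280 or Chow_WT_27ac_96.

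**Figure D4:**
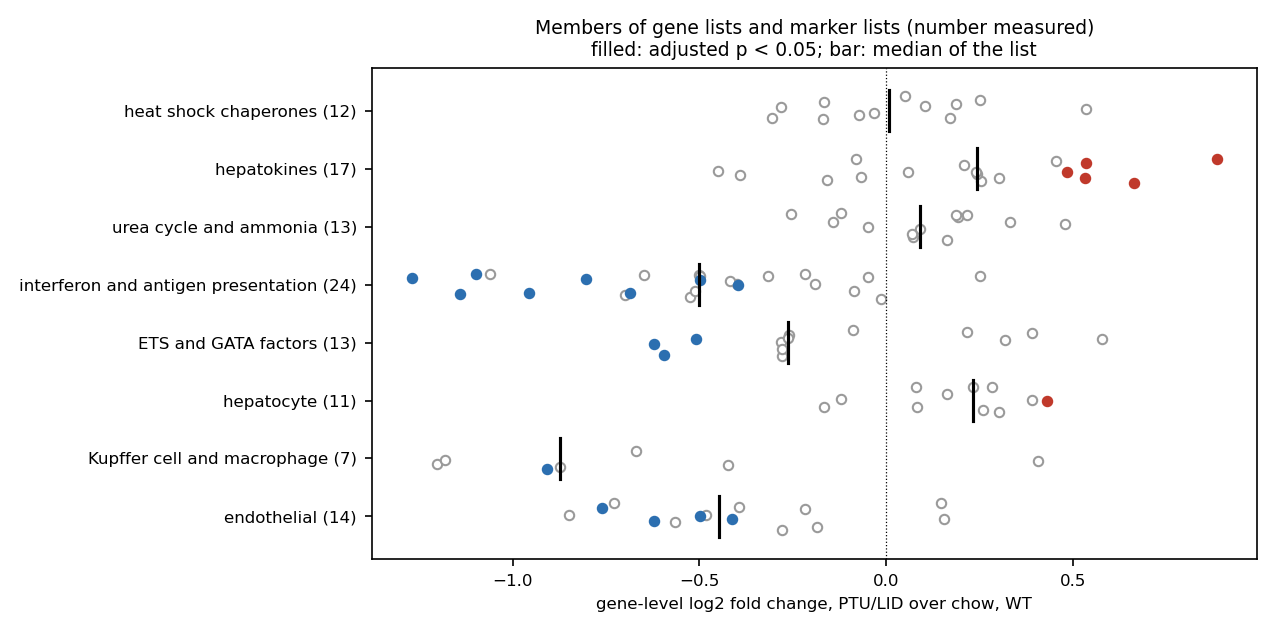
Gene-level log2 fold change (PTU/LID over chow, WT) of the measured members of 5 gene lists and 3 marker lists, with called genes filled (red higher, blue lower) and the list median as a bar. The interferon list has its median at -0.50 and the hepatokine list at 0.24, beside medians of -0.87 for Kupffer cell and macrophage markers and -0.45 for endothelial markers.

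Hepatokines, proteins that the liver secretes as signals, had 5 higher and 0 lower of 17 genes, with a median of 0.24 (between 6 higher without Ptulid_WT_27ac_135 and 1 without Ptulid_WT_27ac_280, with 2 without Chow_WT_27ac_99 and 3 without Ptulid_WT_27ac_155 or Chow_WT_27ac_96). Inhbe, which encodes activin E, had 161, 188 and 215 CPM on PTU/LID and 130, 111 and 116 CPM on chow (0.66 ± 0.14, adjusted p = 0.0057). Angptl8, an inhibitor of lipoprotein lipase, had 48.4, 64.5 and 83.9 CPM on PTU/LID and 41.3, 30.3 and 36 CPM on chow (0.89 ± 0.19), and its call was lost without Ptulid_WT_27ac_280 (0.0611). The other 3, Rbp4, Gdf15 and Inhbc, rose by 0.48 to 0.53. Rbp4 lost its call without Ptulid_WT_27ac_155 (0.114) and Ptulid_WT_27ac_280 (0.175) and Chow_WT_27ac_96 (0.1) and Chow_WT_27ac_99 (0.121), Gdf15 without the same 4 (0.126 to 0.163), and Inhbc without Ptulid_WT_27ac_280 (0.0828) and Chow_WT_27ac_99 (0.0752) and Chow_WT_27ac_106 (0.0706).

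Selenoproteins, the family to which deiodinases belong, had 0 higher and 2 lower of 15. Beside Dio1 this was Gpx1, a glutathione peroxidase, with 227, 214 and 217 CPM on PTU/LID and 318, 278 and 318 CPM on chow (-0.48 ± 0.11, adjusted p = 0.0089). Dio3, the deiodinase that inactivates thyroid hormone, moved the other way from Dio1, with 52.5, 77.8 and 75.7 CPM on PTU/LID and 45.2, 37.2 and 40.5 CPM on chow (0.76 ± 0.17), and lost its call without Ptulid_WT_27ac_155 (0.0637) and Ptulid_WT_27ac_280 (0.0526) and Chow_WT_27ac_99 (0.0575). The 3 called regions of the Dio3 locus overlapped no coding gene and take the name Dio3 from position. Dio3 was the 1 called gene of 15 in thyroid hormone conjugation and clearance. Of 10 thermogenesis and uncoupling genes 2 were lower. Ucp2, an uncoupling protein, had 53.8, 37.8 and 37.6 CPM on PTU/LID and 64.4, 69.4 and 67 CPM on chow, and Pdp2, a phosphatase that activates pyruvate dehydrogenase, had 64.2, 77.3 and 75.7 CPM on PTU/LID and 125, 100 and 133 CPM on chow. Sort1, the sorting receptor sortilin, fell by 0.77, with 33.3, 38.3 and 47.6 CPM on PTU/LID and 80.8, 71.6 and 54.1 CPM on chow. Ftcd, an enzyme of histidine breakdown, rose by 0.71, with 102.5, 121.7 and 134 CPM on PTU/LID and 67.3, 64.4 and 85.5 CPM on chow.

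Regulators of G-protein signalling had 2 higher, Rgs8 and Rgs16, and 1 lower, Rgs3, of 8, and Rgs3 (-0.55 ± 0.13) lost its call without Ptulid_WT_27ac_280 (0.0815). The list of hepatic G-protein-coupled receptors had 3 higher and 0 lower of 16, of which Adora1 had a gene-level 274 ± 36.3 CPM on PTU/LID and 148 ± 8.19 CPM on chow (SD, n = 3 each). The other two, the glucagon receptor gene Gcgr (0.40 ± 0.11) and the purinergic receptor gene P2ry2 (0.50 ± 0.15), lost their calls without every library but Ptulid_WT_27ac_135 (0.0809 to 0.108 and 0.0859 to 0.183), which left 1 called gene. Cell cycle genes had 1 higher and 2 lower of 15, with E2f8 as the member that kept its call. Several lists were near the background of 7.69%: amino acid catabolism had 2 called of 24, complement 1 of 21, coagulation 2 of 21 and chromatin acetylation 1 of 19. Without Ptulid_WT_27ac_135 these were 7, 5, 5 and 3 called genes in that order, and without any other library 0 to 4. In 5 lists 0 genes were called by edgeR: heat shock chaperones (12 genes), insulin and IGF signalling (17), urea cycle (13), DNA methylation and Polycomb (11), and lysosome and autophagy (19). At an unadjusted p under 0.05 these had 2, 2, 2, 3 and 3 genes in that order, and DESeq2 called 1 gene of the DNA methylation and Polycomb list and 0 of the other 4. Without Ptulid_WT_27ac_135 edgeR called 1 gene in each of these lists but the heat shock chaperones.

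Livers of KO mice gave the same diet comparison in libraries that share no sample with the WT groups. Mitochondrial regions took 2.27%, 0.717% and 0.723% of counts in the KO PTU/LID libraries, against 4.21%, 17.2% and 2.996% in the KO chow libraries. Every KO chow library was thus above every KO PTU/LID library, while in WT the shares of the diets overlapped. The part of this share in the agreement between genotypes was not tested. Of the 880 genes called in WT, 285 (32.4%) were also called in KO, which is 33.5% of the 852 called there (7.44% of genes tested), and 281 of them changed in the same direction. The sign was the same in both genotypes for 89.4% of WT-called genes and for 64.7% of all genes tested. All 20 lower genes named above were also called in KO, as were 13 of the 20 higher ones. The lower genes include 13 nearly identical Mup genes and the neighbours Sult2a7 and Sult2a8, so they are not 20 independent results. The deiodinase gene Dio1 changed by -1.94 ± 0.18 in WT and -2.64 ± 0.18 in KO, and Irf9 by -0.80 ± 0.13 in WT and -0.47 ± 0.13 in KO. Rgs16 changed by 1.69 ± 0.31 in WT and by 0.75 ± 0.30 in KO, where it was not called (adjusted p = 0.18), and the difference of both effects was not called either (adjusted p = 0.49). Over all genes the difference between genotypes was called for 46 (0.402%), 14 of them also called in WT. That count was 89 without Ptulid_WT_27ac_135 and 19 without Ptulid_WT_27ac_280, and it was 20 without Chow_WT_27ac_99 and 30 without Chow_WT_27ac_106.

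**Figure D5:**
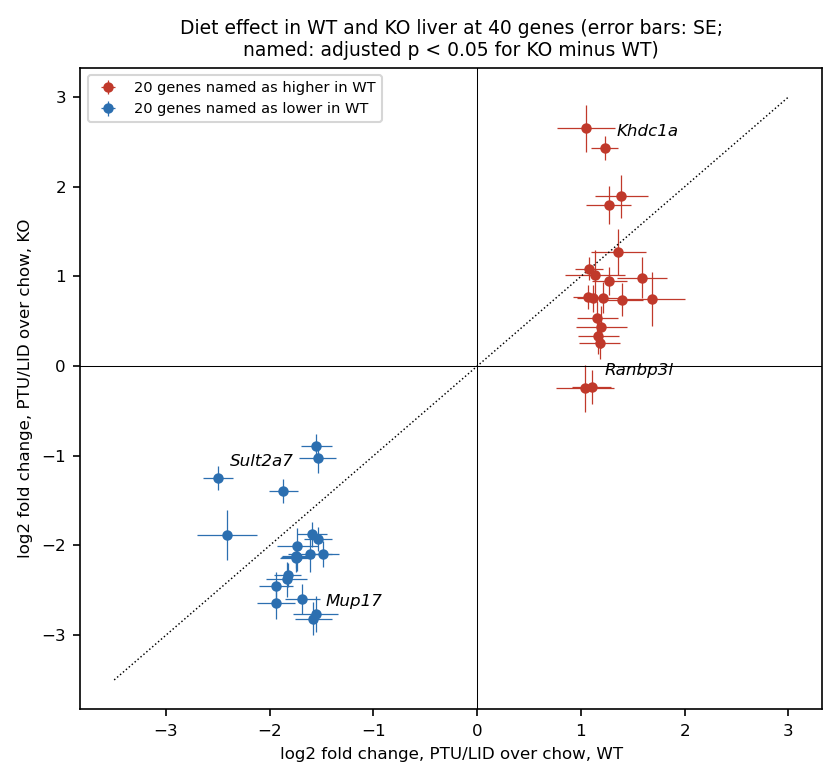
Diet effect (log2 fold change, PTU/LID over chow, with SE) in WT on the x axis and in KO on the y axis for the 20 genes named as higher (red) and the 20 named as lower (blue) in WT, with a dotted line of equal effects. Of the 40 genes 38 have the same sign in both, and the 4 labelled genes have a called difference between genotypes.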

How the data were processed

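H3K27ac libraries of mouse liver were compared from the read counts that the authors deposited, 1 table of whole-number counts over 52645 regions for 12 libraries. The build, mm10, and the tools MACS2 2.1.1, Bowtie2 2.2.1, bedtools 2.26.0, Picard 2.8.1 and bcl2fastq 2.17.1.14 are listed without roles, per the submitters' processing notes. The sources used here do not give the merging of regions or the handling of duplicates. Region lengths in the authors' table run from 200 to 9857 bases. The 4 input libraries were not analysed here.

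Counts were fitted with edgeR 4.0.16 in R 4.3.3 by the quasi-likelihood test with robust estimates, TMM factors, 1 mean per group over all 12 libraries and filterByExpr at a minimum count of 10. This kept 52606 regions and 11448 genes, and a Benjamini-Hochberg adjusted p under 0.05 over all features is a call. Each SE divides the size of the log2 fold change by the root of the F statistic. Regions went to the coding gene around their midpoint, or failing that to the closest gene end up to 50 kb away, with a RefSeq table of GRCm38.p6 that has no strand or exons, and counts were summed per gene. CPM use TMM-scaled library sizes, so genome-wide shifts of the mark are invisible, and the depth of 2965505 to 5831372 counts per WT library limits weak regions. Promoter windows and sequences are from RefSeq. The script was tested on simulated counts.

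Named regions (12 per direction, at least 5 CPM) and genes (20 per direction, at least 20 CPM) were those with the largest log2 fold change among called, nuclear features whose groups did not overlap. The minimum applies to the higher group, so a feature low in the other group could enter through it. Loci were the 10 with the most called regions per direction, and further genes were called list members, the 10 genes with the most called regions and those with 2 or more called regions in each direction. The members and lists were chosen with earlier results of these data known. Alternatives were DESeq2 1.42.0, RLE factors, no filter, chrM regions left out, a term for chrM share, WT libraries alone, other gene assignments, a 20 kb locus gap and single libraries left out.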

Additional observations from a re-analysis of the deposited data

Results flagged for a closer look

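The diet effect differed between genotypes, by a test of the difference itself, at 4 named genes and 3 named regions. At Sult2a7 the log2 fold change was -2.50 in WT and -1.25 in KO, a KO minus WT difference of 1.25 ± 0.19 (edgeR adjusted p = 0.0031). At Khdc1a it was 1.23 in WT and 2.43 in KO, a difference of 1.2 ± 0.18 (0.0031). These 2 calls held under every alternative run for them. At Mup17 it was -1.58 in WT and -2.82 in KO, a difference of -1.23 ± 0.25 (0.038), which lost its call with a term for mitochondrial share (0.0582) and without Ptulid_WT_27ac_155 (0.0681), Chow_WT_27ac_99 (0.109) and Chow_WT_27ac_106 (0.115). At Ranbp3l it was 1.1 in WT and -0.23 in KO, a difference of -1.34 ± 0.27 (0.0207), lost without Ptulid_WT_27ac_280 (0.0615) and Chow_WT_27ac_96 (0.0582) and Chow_WT_27ac_99 (0.0658) and within the WT libraries of low (0.136) and of high mitochondrial share (0.149).

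Among these genes, the chow levels of Khdc1a were 136, 174 and 130 CPM in WT and 70.8, 68.5 and 64.3 CPM in KO. Its PTU/LID levels were 330, 329 and 368 CPM in WT and 310, 431 and 355 CPM in KO. Mup17 also differed mainly on chow, with 529, 366 and 371 CPM in WT and 1409, 1142 and 1381 CPM in KO. Ranbp3l differed on PTU/LID, with 31.6, 32.85 and 35.6 CPM in WT and 17.4, 14.2 and 12.6 CPM in KO. Sult2a7 was higher in KO on both diets. The 3 regions lie between genes by Sult2a7. For chr7:14517333-14521529 the effect was -2.79 in WT and -1.55 in KO, a difference of 1.24 ± 0.24 (adjusted p = 0.00851, but 0.0547 without Ptulid_WT_27ac_280 and 0.0873 within the libraries of high mitochondrial share). For chr7:14525595-14527521 it was -2.53 in WT and -0.98 in KO, a difference of 1.54 ± 0.30 (0.0163, but 0.0728 without Ptulid_WT_27ac_280 and 0.144 within the libraries of low mitochondrial share). For chr7:14521796-14523420 it was -2.43 in WT and -1.04 in KO, a difference of 1.39 ± 0.31 (0.0465), lost with RLE factors (0.0513) and without Ptulid_WT_27ac_155 (0.132) and Ptulid_WT_27ac_280 (0.175) and Chow_WT_27ac_96 (0.114) and Chow_WT_27ac_106 (0.119). Within the libraries of high mitochondrial share that difference was 0.819 (0.57).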

How the results depend on the processing

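Calls rested on single libraries. Leaving out 1 WT library gave 669 to 3612 called regions (1949 with all), 338 to 1582 genes (880), 49 to 331 loci (70 higher and 85 lower) and 19 to 89 genes with a difference between genotypes (46). Within the 3 WT libraries of low mitochondrial share (Ptulid_WT_27ac_155, Ptulid_WT_27ac_280 and Chow_WT_27ac_106) there were 761 regions, 379 genes and 50 loci, and within the 3 of high share (Ptulid_WT_27ac_135, Chow_WT_27ac_96 and Chow_WT_27ac_99) 188 regions (48 higher and 140 lower), 55 genes (15 higher and 40 lower) and 17 loci (0 higher and 17 lower). The lone library of a group is assumed there to vary like the others, and both splits and the omissions in the test between genotypes were chosen after seeing the data. Genes summed over regions within 2.5 kb of a gene end alone gave 409. The count of genes that differ between genotypes was 105 with DESeq2 and 212 with a term for mitochondrial share. Other counts stayed within 1.5 times under RLE factors, DESeq2, no filter, the chrM term, chrM regions left out, WT libraries alone, 10 kb and 20 kb. The split of regions was 1070 higher and 894 lower with RLE factors, 1174 and 867 with DESeq2 and 2056 and 1556 without Ptulid_WT_27ac_135, and that of loci 93 higher and 75 lower with DESeq2. The cause of these shifts was not tested, beyond the smaller number of libraries or regions in a fit.

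Among 64 regions and genes named by fold change, all kept their call under RLE factors, no filter, WT libraries alone and without Ptulid_WT_27ac_135, and 60 did with DESeq2. The call was kept by 58 without Ptulid_WT_27ac_280 or Chow_WT_27ac_106, by 60 or 61 without the other libraries, by 58 within the low-share set and by 34 within the high-share set. Signs turned for F7 within the high-share set (-0.0926) and for Erbb4 (0.111) and Fli1 (0.0899) over regions near gene ends. Leaving out chrM regions gives no gene-level value, since these regions carry no gene. No paired analysis was possible because the groups share no replicate numbers.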

Other observations

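Promoters outside the genes described above also changed, picked here after their values were seen, from the 25 largest called changes at promoter windows in each direction (Mup genes left out of the lower ones). Regions at the starts of Slc25a48, a mitochondrial carrier gene, and Slco2a1, the prostaglandin transporter gene, had 94 ± 14.7 and 49.8 ± 8.55 CPM on PTU/LID and 44 ± 3.13 and 23.8 ± 3.89 CPM on chow (SD, n = 3 each). The start of Ggt6, of the gamma-glutamyltransferase family, had 45 ± 10.8 CPM on PTU/LID and 19.8 ± 7.74 CPM on chow, and that of Trib3, a pseudokinase gene, 22.3 ± 5.22 CPM on PTU/LID and 10.2 ± 2 CPM on chow. All 4 kept their call when any 1 library was left out. Mlxipl, the gene of the carbohydrate-responsive factor ChREBP, had 20.8 ± 6.3 CPM on PTU/LID and 9.69 ± 0.961 CPM on chow at its start, and lost its call without Ptulid_WT_27ac_155 (adjusted p = 0.0516 by edgeR).

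Lower promoter regions with calls under every omission included that of Csrp3, with 34.7 ± 8.3 CPM on PTU/LID and 92.7 ± 11.3 CPM on chow, and that of Cnot8, a deadenylase subunit gene whose window region also covers Gm12248, with 26.8 ± 2.32 CPM on PTU/LID and 63.2 ± 8.87 CPM on chow. Xaf1 and Slfn8, both interferon-inducible, had 11.8 ± 1.44 and 7.03 ± 0.896 CPM on PTU/LID and 25.6 ± 2.29 and 16.3 ± 2.31 CPM on chow.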
